A study of Mus musculus with 8 samples.

Results

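Axon guidance ligands and receptors were examined in cultured mouse neural stem cells (NSCs). The group was defined by gene symbol alone. It took in the semaphorins, plexins, ephrins, Eph receptors, Slits, Robos, netrins and Unc5 receptors, together with Nrp1, Nrp2, Dcc and Neo1. Of 18194 genes named on the array by a probe set of 1 gene, 72 matched these letters, and 69 of them are guidance ligands or receptors. The other 3, Unc50, Unc5cl and Plxna4os1, matched by letters alone and are left out of every count below. Each gene was read from the probe set with the highest mean signal over the arrays. The limit for testing was a signal of 50 or more, met by 2 or more of the 8 arrays. It was passed by 39 of the 69 genes and missed by 30. Of the 39, 10 met it through the arrays of 1 group or 1 medium alone, so that a difference from the other groups was built into their choice. Efna3, Nrp2 and Sema3a met it in MHM + GF at 3 days alone and Slit1 in MHM + GF at 7 days alone. Efnb2 and Robo1 met it only in MHM + GF, and Efna1, Sema3b, Sema5a and Unc5b only in rcCHIL3. Their changes are given as measured.

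The study asked how CHIL3, a secreted chitinase-like protein, alters gene expression in NSCs grown as secondary neurospheres, which are floating balls of progenitor cells. The deposited description gives adult mouse brain as their source, while the paper's methods describe neurospheres from embryonic or adult forebrain and do not say which were used for the arrays. The 4 groups were MHM + GF for 3 days, rcCHIL3 for 3 days, MHM + GF for 7 days and rcCHIL3 for 7 days, with 2 arrays each. MHM + GF is the control medium with the growth factors EGF and FGF-2. It is labelled MHM in the sample names, where CHIL3 carries its older name ECF-L. rcCHIL3 is recombinant CHIL3 in medium conditioned by HEK293T cells, a human embryonic kidney line, that had been transfected with Chil3. By these names growth factors were added to the control alone, so the presence of rcCHIL3 and the lack of added growth factors cannot be told apart on these arrays, nor can CHIL3 and the other products of the HEK293T cells. Strain, genotype and exact age are not given in the labels, and no group is described as carrying a transgene. The paper's methods describe 2 independent experiments for each group. The p-values rest on the spread between the 2 arrays of a group, pooled over the 4 groups. This spread is drawn toward that of probe sets of similar signal. An array of any group thus bears on every comparison, and the number of arrays limits the precision of the p-values.

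Axon guidance molecules steer growing axons and migrating cells by attraction or repulsion. Secreted class 3 semaphorins act through neuropilins joined to plexins, and membrane-bound semaphorins act on plexins directly. Ephrins and Eph receptors both sit in the cell membrane and signal in both directions when cells touch. Slits repel through Robo receptors, and netrins attract or repel through Dcc, Neo1 and Unc5 receptors. In the adult ventricular wall, Slits, Ephs and ephrins are known to act on the migration of young neurons and on progenitor proliferation.

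All signals below are deposited MAS5 intensities, which are linear, rescaled so that each array averages 100. Each change is a log2 change of (signal + 20), which understates the change of a gene with a low signal. Its standard error (SE) and two-sided adjusted p come from 1 limma model with 4 group means and Benjamini-Hochberg adjustment over 15679 probe sets. A gene is said to have risen or fallen, or to be called, when the adjusted p was under 0.05. Lack of overlap between 2 groups of 2 arrays is given as a description alone. It also occurred without a call, as for Dcc, Efna2 and Plxnb2 at 3 days, and its share over all probe sets was not computed. Signals of different genes come from different probes, so their levels are not compared with each other.

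The arrays of a group resembled each other, with correlations of 0.992 to 0.994, and between 30.1% and 31.5% of probe sets reached a signal of 50 on each array. All 9 measured markers of neural stem and progenitor cells passed the filter, as did all 6 of astrocytes, 4 of 5 of oligodendrocytes, all 5 of oligodendrocyte progenitors and 5 of 7 of neurons and neuroblasts. None of 6 microglial and none of 5 endothelial markers passed. The summed signal of the stem and progenitor list was 10434 to 10966 in MHM + GF and 8093 to 8463 in rcCHIL3 at 3 days, and 10559 to 10573 and 9235 to 9309 at 7 days. For astrocytes it was 3693 to 3857 and 6169 to 6339 at 3 days, and 7193 to 7311 and 7610 to 7693 at 7 days. In that list Gfap, Aqp4, S100b and Gja1 were higher in rcCHIL3 at 3 days. Aldh1l1 (998 in MHM + GF and 409 in rcCHIL3) and Slc1a2 (336 and 282) were lower. The summed signal of the oligodendrocyte list was 3163 to 3178 and 5196 to 5316 at 3 days, and 4879 to 4978 and 5217 to 5476 at 7 days. The progenitors of oligodendrocytes gave 2736 to 2831 and 2163 to 2217 at 3 days, and 1272 to 1305 and 1006 to 1039 at 7 days. Neuronal and neuroblast markers summed to 1370 to 1406 and 1497 to 1514 at 3 days, and to 1851 to 1883 and 1172 to 1290 at 7 days, with Map2 the main part of each sum. Among them Dcx, a neuroblast marker, had group means of 74.4 in MHM + GF and 220.3 in rcCHIL3 at 3 days, and of 223 and 67.2 at 7 days. Tubb3 had 22.2 and 60.9 at 3 days, and 98.2 and 18.4 at 7 days. Stmn2 had 13.0 and 101 at 3 days, and 119 and 107 at 7 days. Map2 and Snap25 went the other way at 3 days. Map2 had 1195 and 1018 at 3 days, and 1348 and 957 at 7 days. Snap25 had 53.9 and 30.5 at 3 days, and 28.8 and 22.2 at 7 days. The list taken as ependymal held Foxj1, Rsph1, Tppp3 and Ttr. It summed to 142 to 275 in MHM + GF and to 568 to 882 in rcCHIL3 at 3 days. At 7 days it gave 536 to 835 and 1313 to 1504. Ttr made up a large part, with means of 101 and 312 at 3 days and 416 and 461 at 7 days. Rsph1 went the other way at 3 days, with 38.2 and 23.0. The mural and fibroblast list, through Pdgfrb and Rgs5, stood at 424 to 462 in MHM + GF at 7 days and at 31.1 to 82.6 on every other array. The sums of these lists moved with the groups that are compared below, though not every gene moved with the sum of its list. The part of the lists in the guidance results was not tested. In bulk cultures fewer cells of a type and less RNA per cell cannot be told apart.

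The guidance genes changed in both directions at both times. At 3 days, 19 of the 39 were higher and 13 lower in rcCHIL3 than in MHM + GF, which is 82.1% of them, where 50.2% of all probe sets tested were called. For all probe sets the share was 27.7% higher and 22.5% lower. At 7 days, 11 genes were higher and 13 lower, 61.5% in all, against 44% of all probe sets (21.3% higher and 22.7% lower). On the signals as deposited the split at 7 days was 16 higher and 12 lower, of 53 genes tested. The median log2 change of the 39 genes was 0.25 at 3 days, beside 0.03 over all probe sets, and -0.09 at 7 days, beside -0.01. Among 20 ligands tested, 9 were higher and 8 lower at 3 days, and 5 and 6 at 7 days. The 19 receptors tested gave 10 higher and 5 lower at 3 days, and 6 and 7 at 7 days. Of the 29 genes that met the limit for testing in both media, a split made after the values were seen, 16 were higher and 7 lower at 3 days (79.3%), and 7 and 9 at 7 days (55.2%).

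**Figure D1:**
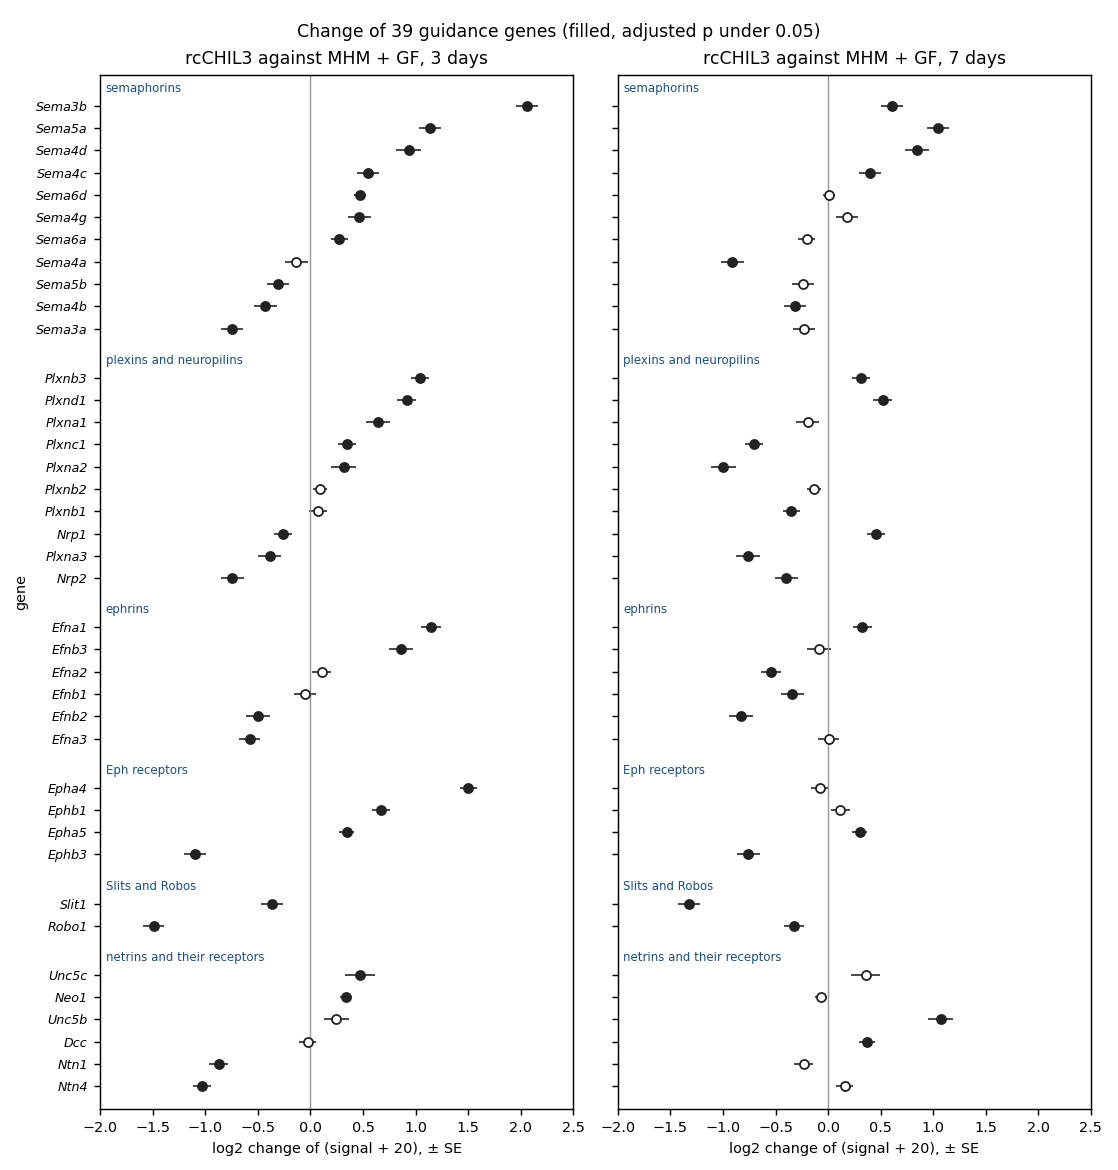
Log2 change of (signal + 20) in rcCHIL3 against MHM + GF for the 39 guidance genes tested, by family, at 3 days (left) and 7 days (right). Points are estimates from 2 arrays a group, bars are ± SE, and filled points have an adjusted p under 0.05. Of the filled points, 19 lie to the right of 0 and 13 to the left at 3 days, and 11 and 13 at 7 days.

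Of the 39 genes, 8 were called higher at both times, namely Efna1, Epha5, Plxnb3, Plxnd1, Sema3b, Sema4c, Sema4d and Sema5a. Another 7 were called lower at both times, Efnb2, Ephb3, Nrp2, Plxna3, Robo1, Sema4b and Slit1. Plxna2 and Plxnc1 were higher at 3 days and lower at 7 days, and Nrp1 was lower at 3 days and higher at 7 days. A further 9 rose at 3 days without a call at 7 days, and 5 fell at 3 days without one. Dcc and Unc5b rose, and Efna2, Efnb1, Plxnb1 and Sema4a fell, at 7 days alone among the calls. Plxnb2 was called at neither time. Of all probe sets, 50.2% were called at 3 days and 44% at 7 days, and the share with each joint pattern was not computed. These counts are thus not shown to be particular to guidance genes. Among the genes called the same way at both times, Efna1, Sema3b and Sema5a met the limit for testing only in rcCHIL3. Efnb2 and Robo1 met it only in MHM + GF, and Nrp2 and Slit1 in 1 group alone. Whether an effect differed between the days was tested by the difference itself, with results given under each family.

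**Figure D2:**
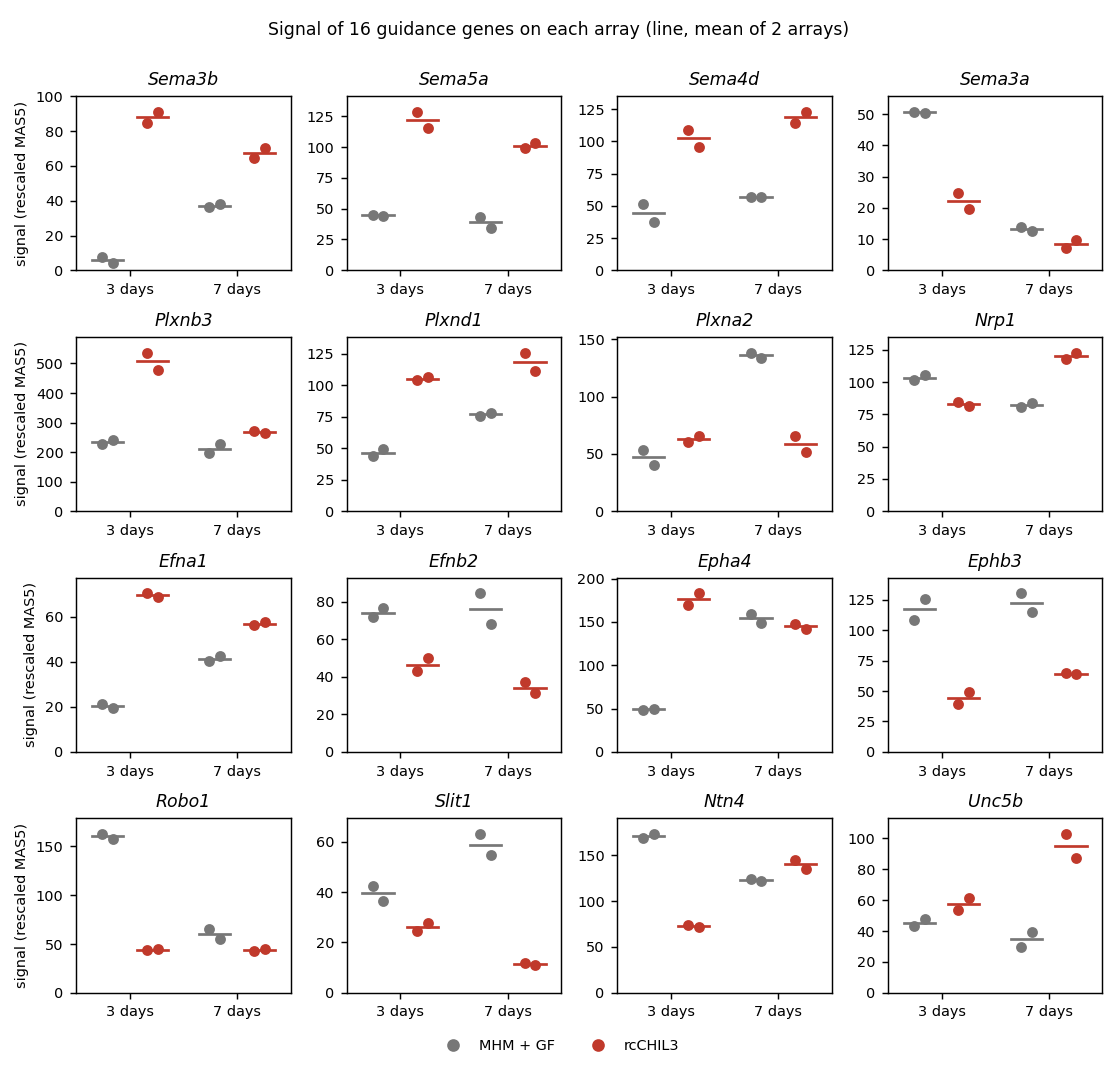
Signal of 16 guidance genes on each of the 8 arrays, in rescaled MAS5 units on linear axes from 0, with MHM + GF in grey and rcCHIL3 in red. Each point is 1 array and each line the mean of 2. Sema3b, for example, lay at 7.74 and 4.09 in MHM + GF and at 84.6 and 91.2 in rcCHIL3 at 3 days.

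Semaphorins were the largest family, with 20 genes, of which 11 were tested. At 3 days 7 rose and 3 fell in rcCHIL3, and at 7 days 4 rose and 2 fell. These are 90.9% and 54.5% of the 11, where 50.2% and 44% of all probe sets were called. The largest rises were those of Sema3b, a secreted ligand of neuropilin and plexin complexes, and Sema5a, a transmembrane semaphorin with thrombospondin repeats that binds Plxnb3. Sema3a, the secreted repellent that acts through Nrp1, fell at 3 days, from the 1 group in which it met the limit for testing. The promoter of Sema5a is shown because the gene had the largest rise of its family at 7 days. It is the 250 bases before the transcription start in RefSeq on GRCm38.p6, 5′ to 3′ on the gene's strand, with capitals for the GC box GGGCGG or its reverse CCGCCC:
Sema5a, chr15:32244563-32244812 (+): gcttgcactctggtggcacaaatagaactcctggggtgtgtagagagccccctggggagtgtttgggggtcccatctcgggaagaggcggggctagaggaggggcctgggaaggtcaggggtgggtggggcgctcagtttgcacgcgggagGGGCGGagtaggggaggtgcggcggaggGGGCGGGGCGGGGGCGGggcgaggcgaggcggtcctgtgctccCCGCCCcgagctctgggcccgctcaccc

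Sema3b gave signals of 7.74 and 4.09 in MHM + GF and 84.6 and 91.2 in rcCHIL3 at 3 days, and of 36.2 and 38.3 in MHM + GF and 64.4 and 70.2 in rcCHIL3 at 7 days. The early control arrays were by far the lowest, and the groups did not overlap at either time. Sema3b met the limit for testing only in rcCHIL3, so a difference between the media was built into its choice. Its log2 change was 2.06 (SE 0.11, adjusted p = 3.2e-08) at 3 days and 0.61 (SE 0.11, adjusted p = 0.0008) at 7 days. The effect at 7 days minus that at 3 days was -1.45 (SE 0.15, adjusted p = 1.8e-05), the largest such difference in the family, while the signal in MHM + GF rose with time. For Sema5a the signals were 44.8 and 44.4 in MHM + GF and 129 and 116 in rcCHIL3 at 3 days and 43.3 and 34.3 in MHM + GF and 99.1 and 103 in rcCHIL3 at 7 days. All 4 rcCHIL3 arrays lay above all 4 control arrays. Sema5a met the limit for testing only in rcCHIL3, so a difference between the media was built into its choice. The change was 1.14 (SE 0.10, adjusted p = 3.3e-06) at 3 days and 1.05 (SE 0.10, adjusted p = 1.4e-05) at 7 days, and the difference between the days was -0.09 (SE 0.14, adjusted p = 0.65). Sema4d, a transmembrane ligand of Plxnb1 that is also shed, rose at both times too, with signals of 51.5 and 37.2 in MHM + GF and 109 and 95.5 in rcCHIL3 at 3 days and 56.9 and 57.2 in MHM + GF and 114 and 123 in rcCHIL3 at 7 days. Its change was 0.93 (SE 0.12, adjusted p = 4.5e-05) and 0.85 (SE 0.12, adjusted p = 0.00016). No rcCHIL3 array of Sema4d reached down to a control array.

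Among the semaphorins that fell, Sema3a had 50.8 and 50.4 in MHM + GF and 24.6 and 19.6 in rcCHIL3 at 3 days. By 7 days all arrays were low, at 13.9 and 12.6 in MHM + GF and 7.19 and 9.70 in rcCHIL3. Its change was -0.75 (SE 0.11, adjusted p = 0.00012) at 3 days and -0.23 (SE 0.11, adjusted p = 0.1) at 7 days, a difference between the days of 0.52 (SE 0.15, adjusted p = 0.016). Sema4b, a transmembrane semaphorin, gave 78.4 and 83.4 in MHM + GF and 60.3 and 50.02 in rcCHIL3 at 3 days and 78.5 and 93.1 in MHM + GF and 63.3 and 66.6 in rcCHIL3 at 7 days. The rcCHIL3 arrays were the lower ones both times, with changes of -0.43 (SE 0.11, adjusted p = 0.0057) and -0.31 (SE 0.11, adjusted p = 0.033). Sema4a, another transmembrane member, showed 77.7 and 78.6 in MHM + GF and 68.5 and 70.1 in rcCHIL3 at 3 days and 112 and 121 in MHM + GF and 60.4 and 45.1 in rcCHIL3 at 7 days. The groups did not overlap at either time, but the early ones lay closer together. Its change was -0.14 (SE 0.11, adjusted p = 0.32) at 3 days and -0.91 (SE 0.11, adjusted p = 6.2e-05) at 7 days, with a difference of -0.78 (SE 0.15, adjusted p = 0.002).

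Of the other semaphorins, Sema4c, a ligand of Plxnb2, rose by 0.55 and 0.40. Sema4g, Sema6d and Sema6a were called at 3 days alone, with changes of 0.46, 0.47 and 0.27. Sema6d and Sema6a are transmembrane ligands of class A plexins. Sema5b, related to Sema5a, went the other way, with -0.31 at 3 days, called, and -0.24 at 7 days, not called. The call for Sema4b at 3 days ended without rcCHIL3 3 days replicate 2 (adjusted p = 0.0631). The call for Sema4b at 7 days ended with no filter, on the signals as deposited and without MHM + GF 7 days replicate 2 or rcCHIL3 7 days replicate 1 or 2 (adjusted p from 0.0765 to 0.252). The call for Sema4c at 7 days ended without MHM + GF 7 days replicate 2 (adjusted p = 0.0527). The call for Sema5b at 3 days ended with no filter and without MHM + GF 3 days replicate 1 or rcCHIL3 3 days replicate 2 (adjusted p from 0.0587 to 0.17). The call for Sema6a at 3 days ended on the signals as deposited and without MHM + GF 3 days replicate 1 or 2 or rcCHIL3 3 days replicate 1 or 2 (adjusted p from 0.0567 to 0.295). The call for Sema3a on the difference between the days ended with no filter, on the signals as deposited and without rcCHIL3 3 days replicate 2 or rcCHIL3 7 days replicate 2 (adjusted p from 0.0606 to 0.0753).

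Plexins and neuropilins, the receptors of the semaphorins, were nearly all expressed, with 10 of 11 genes tested and only Plxna4 under the filter. At 3 days 5 rose and 3 fell in rcCHIL3, and at 7 days 3 rose and 5 fell. That is 80% of the 10 each time, beside 50.2% and 44% of all probe sets. Plxnb3, the receptor of Sema5a, and Plxnd1, a receptor of class 3 semaphorins, rose at both times. Both neuropilins fell at 3 days. Plxna2 and Plxnc1 turned from higher to lower. The promoter of Plxnb3 is shown beside that of its ligand Sema5a, and it holds no GC box in the 250 bases before the start, so that it has no capitals:
Plxnb3, chrX:73756853-73757102 (+): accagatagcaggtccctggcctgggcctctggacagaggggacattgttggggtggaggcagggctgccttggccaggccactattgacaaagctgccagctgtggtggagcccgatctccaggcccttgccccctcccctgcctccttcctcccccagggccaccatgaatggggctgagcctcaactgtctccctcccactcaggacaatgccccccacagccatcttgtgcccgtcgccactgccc

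Plxnb3 gave 229 and 242 in MHM + GF and 537 and 477 in rcCHIL3 at 3 days and 196 and 228 in MHM + GF and 270.2 and 263 in rcCHIL3 at 7 days. The rcCHIL3 arrays at 3 days stood above all others, and the groups did not overlap at 7 days. The change was 1.043 (SE 0.09, adjusted p = 1.7e-06) at 3 days and 0.31 (SE 0.09, adjusted p = 0.013) at 7 days, and the difference between the days was -0.73 (SE 0.12, adjusted p = 0.00067). Plxnd1 had 43.9 and 49.1 in MHM + GF and 104 and 106 in rcCHIL3 at 3 days and 75.5 and 78.3 in MHM + GF and 126 and 112 in rcCHIL3 at 7 days. It was higher in rcCHIL3 at both times, by 0.92 (SE 0.09, adjusted p = 9.3e-06) and 0.52 (SE 0.09, adjusted p = 0.001), with a difference of -0.40 (SE 0.13, adjusted p = 0.032). Plxna2, a class A plexin, gave 53.1 and 40.6 in MHM + GF and 60.4 and 65.3 in rcCHIL3 at 3 days and 138 and 134 in MHM + GF and 65.3 and 51.9 in rcCHIL3 at 7 days. The late control arrays stood above all others, while the rcCHIL3 arrays lay between 51.9 and 65.3 at both times. The change was 0.32 (SE 0.12, adjusted p = 0.042) at 3 days and -0.996 (SE 0.12, adjusted p = 5.6e-05) at 7 days, and the difference of -1.31 (SE 0.17, adjusted p = 9.2e-05) was the largest downward one in the family. Its other probe sets past the filter gave 0.37 (called) and 0.26 (not called) at 3 days. At 7 days they gave -0.08 (not called) and -0.87 (called), with differences of -0.45 (not called) and -1.14 (called). Plxnc1, which binds Sema7a, followed the same course with 0.35 and -0.71. Plxna1, a class A plexin that binds Sema6d, rose by 0.64 at 3 days.

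Nrp1, the neuropilin that binds Sema3a and also VEGF, ran the opposite way. Its signals were 101 and 105 in MHM + GF and 84.9 and 81.2 in rcCHIL3 at 3 days and 81.1 and 83.6 in MHM + GF and 118 and 123 in rcCHIL3 at 7 days. The rcCHIL3 arrays lay below the control at 3 days and above it at 7 days, without overlap. The change was -0.26 (SE 0.08, adjusted p = 0.024) and 0.46 (SE 0.08, adjusted p = 0.0012), with a difference of 0.72 (SE 0.12, adjusted p = 0.00064), the only upward one called among plexins and neuropilins. The other probe set of Nrp1 past the filter gave -0.12 (not called) at 3 days and 0.54 (called) at 7 days, with a called difference of 0.66. Nrp2, which binds Sema3f and other class 3 semaphorins, gave 86.8 and 68.2 in MHM + GF and 37.7 and 38.3 in rcCHIL3 at 3 days and 29.6 and 27.1 in MHM + GF and 17.8 and 15.7 in rcCHIL3 at 7 days. It was lower in rcCHIL3 at both times and lower at 7 than at 3 days in each medium, and it met the limit for testing in MHM + GF at 3 days alone. The change was -0.74 (SE 0.11, adjusted p = 0.00019) at 3 days and -0.40 (SE 0.11, adjusted p = 0.014) at 7 days. Plxna3, which pairs with Nrp2, had 113 and 86.5 in MHM + GF and 68.3 and 73.6 in rcCHIL3 at 3 days and 128 and 122 in MHM + GF and 67.4 and 63.3 in rcCHIL3 at 7 days. It was lower in rcCHIL3 both times, with changes of -0.39 (SE 0.11, adjusted p = 0.012) and -0.76 (SE 0.11, adjusted p = 0.00024). Of the class B plexins other than Plxnb3, Plxnb1 was called lower at 7 days, at -0.35, and Plxnb2 showed 0.09 and -0.14, neither called. The call for Plxna3 at 3 days ended without MHM + GF 3 days replicate 1 or rcCHIL3 3 days replicate 1 (adjusted p from 0.0789 to 0.126). The call for Plxna2 at 3 days ended with no filter, on the signals as deposited and without MHM + GF 3 days replicate 2, MHM + GF 7 days replicate 1 or 2 or rcCHIL3 3 days replicate 1 or 2 (adjusted p from 0.0507 to 0.292). The call for Plxnc1 at 3 days ended on the signals as deposited (adjusted p = 0.11). The call for Nrp1 at 3 days ended on the signals as deposited, with the mean of the gene's probe sets and without MHM + GF 3 days replicate 1 or 2 or rcCHIL3 3 days replicate 1 or 2 (adjusted p from 0.0552 to 0.113). The call for Nrp2 at 7 days ended with no filter and without MHM + GF 7 days replicate 1 or rcCHIL3 7 days replicate 2 (adjusted p from 0.0517 to 0.0773). The call for Plxnb3 at 7 days ended without MHM + GF 7 days replicate 1 or rcCHIL3 7 days replicate 1 (adjusted p from 0.0648 to 0.101). The call for Plxnb1 at 7 days ended on the signals as deposited, with the mean of the gene's probe sets and without rcCHIL3 7 days replicate 2 (adjusted p from 0.0628 to 0.144). The call for Plxnb1 on the difference between the days ended on the signals as deposited, with the mean of the gene's probe sets and without MHM + GF 3 days replicate 2, rcCHIL3 3 days replicate 2 or rcCHIL3 7 days replicate 2 (adjusted p from 0.0563 to 0.33). The call for Plxnd1 on the difference between the days ended with no filter, on the signals as deposited and without MHM + GF 3 days replicate 1, MHM + GF 7 days replicate 1 or 2, rcCHIL3 3 days replicate 1 or 2 or rcCHIL3 7 days replicate 2 (adjusted p from 0.0506 to 0.336).

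Known ligand and receptor pairs did not all move together. Sema5a and Plxnb3 were both higher in rcCHIL3 at 3 and 7 days. Sema4d was higher at both times, with Plxnb1 at 0.07 and -0.35. Sema4c rose with Plxnb2 at 0.09 and -0.14. Sema3a and Nrp1 both fell at 3 days, and at 7 days Nrp1 rose with Sema3a at -0.23. Sema6d and Plxna1 both rose at 3 days, as did Sema6a and Plxna2. These are values side by side, and no relation between them was tested.

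**Figure D3:**
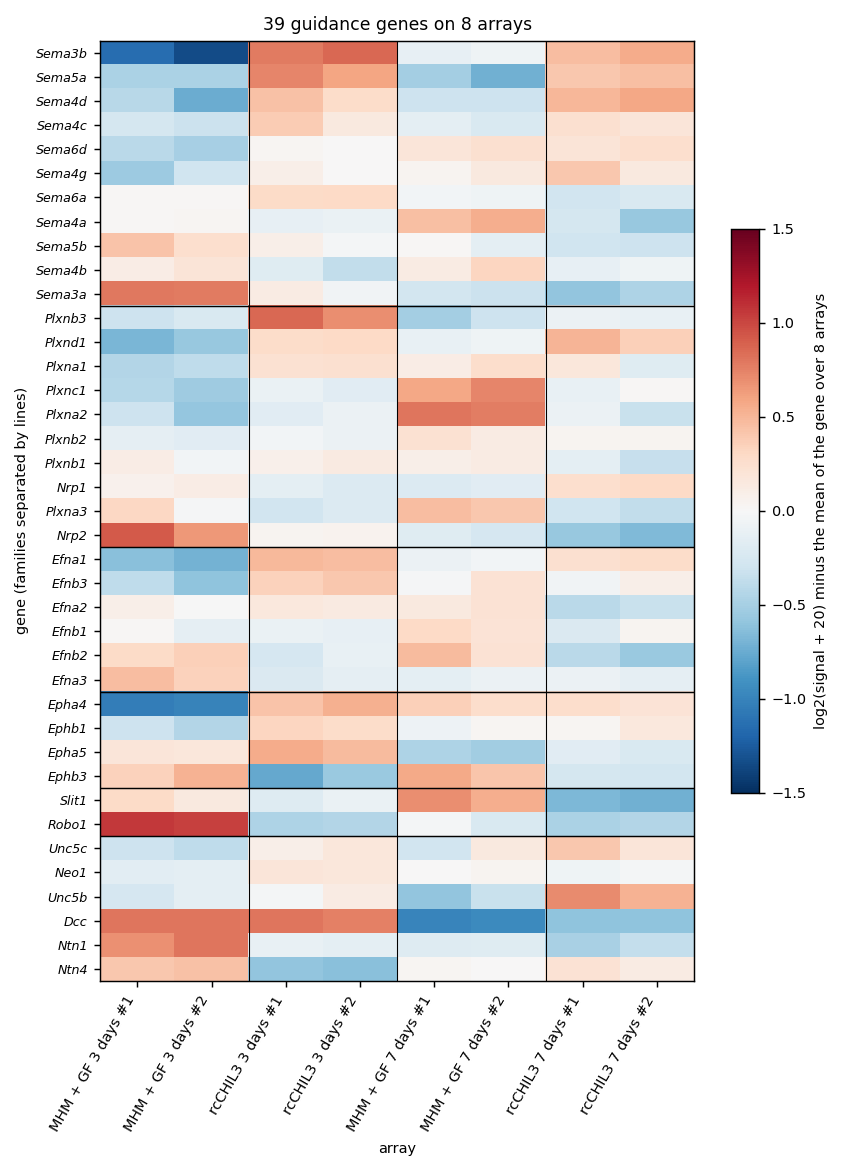
Each row is 1 of the 39 guidance genes tested and each column 1 of 8 arrays. Colour gives log2(signal + 20) minus the mean of that gene over the 8 arrays, from blue (-1.5) to red (1.5), and lines separate families and groups. The 2 arrays of a group resemble each other, and the highest group mean falls in MHM + GF at 3 days for 8 genes, in rcCHIL3 at 3 days for 12, in MHM + GF at 7 days for 12 and in rcCHIL3 at 7 days for 7.

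Ephrins, the membrane-bound ligands of Eph receptors, had 6 of 8 genes tested. At 3 days 2 rose and 2 fell, and at 7 days 1 rose and 3 fell. That is 66.7% of the 6 each time, beside 50.2% and 44% of all probe sets. Efna1, an ephrin held by a lipid anchor, and Efnb3, a transmembrane ephrin that binds Epha4, rose at 3 days. Efnb2, a transmembrane ephrin known from blood vessels and the ventricular wall, fell at both times. Efna1 gave 21.5 and 19.4 in MHM + GF and 70.3 and 68.5 in rcCHIL3 at 3 days and 40.2 and 42.4 in MHM + GF and 56.1 and 57.7 in rcCHIL3 at 7 days. No rcCHIL3 array came down to the control range at the same time. Efna1 met the limit for testing only in rcCHIL3, so a difference between the media was built into its choice. The change was 1.14 (SE 0.09, adjusted p = 1.4e-06) at 3 days and 0.33 (SE 0.09, adjusted p = 0.015) at 7 days, a difference of -0.82 (SE 0.13, adjusted p = 0.00051). Efnb3 had 60.5 and 49.1 in MHM + GF and 113 and 118 in rcCHIL3 at 3 days and 83.2 and 102 in MHM + GF and 80.8 and 90.9 in rcCHIL3 at 7 days. Its groups stood apart early and overlapped late. The change was 0.86 (SE 0.11, adjusted p = 7e-05) at 3 days and -0.09 (SE 0.11, adjusted p = 0.56) at 7 days, and the difference of -0.95 (SE 0.16, adjusted p = 0.00071) was the largest of the ephrins.

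Efnb2 showed 71.9 and 76.6 in MHM + GF and 43.2 and 49.9 in rcCHIL3 at 3 days and 84.5 and 67.9 in MHM + GF and 37.01 and 31.2 in rcCHIL3 at 7 days. All rcCHIL3 arrays lay below all control arrays. Efnb2 met the limit for testing only in MHM + GF, so a difference between the media was built into its choice. The change was -0.50 (SE 0.11, adjusted p = 0.0032) at 3 days and -0.83 (SE 0.11, adjusted p = 0.00016) at 7 days. Efna3, a lipid-anchored ephrin, gave 59.5 and 53.1 in MHM + GF and 29.5 and 32.7 in rcCHIL3 at 3 days and 32.1 and 34.4 in MHM + GF and 34.5 and 32.4 in rcCHIL3 at 7 days. Only the early control arrays were high, and it was tested through them alone, with a change of -0.58 (SE 0.10, adjusted p = 0.0005) at 3 days and 0.01 (SE 0.10, adjusted p = 0.97) at 7 days. Its difference between the days, 0.58 (SE 0.14, adjusted p = 0.0062), was the upward one called in this family. Efna2, also lipid-anchored, gave 62.8 and 57.9 in MHM + GF and 67.2 and 65.7 in rcCHIL3 at 3 days and 66.04 and 70.6 in MHM + GF and 38.9 and 42.1 in rcCHIL3 at 7 days. The late rcCHIL3 arrays were the lowest. Its change was 0.11 (SE 0.09, adjusted p = 0.37) at 3 days and -0.55 (SE 0.09, adjusted p = 0.00073) at 7 days. Efnb1 had -0.05 at 3 days, not called, and -0.34 at 7 days, called. The call for Efna1 at 7 days ended without MHM + GF 7 days replicate 1 or rcCHIL3 7 days replicate 2 (adjusted p from 0.0669 to 0.0688). The call for Efnb1 at 7 days ended with no filter, on the signals as deposited and without MHM + GF 7 days replicate 1 or rcCHIL3 7 days replicate 1 (adjusted p from 0.0573 to 0.197). The call for Efna2 on the difference between the days ended on the signals as deposited (adjusted p = 0.0501).

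Of 13 Eph receptors, the receptor tyrosine kinases for ephrins, only Epha4, Epha5, Ephb1 and Ephb3 were tested. At 3 days the first 3 rose and Ephb3 fell. At 7 days Epha5 was still higher and Ephb3 still lower. The calls made up 100% and 50% of the 4, beside 50.2% and 44% of all probe sets. Epha4, which binds ephrins of both classes, had the largest change, and its promoter is shown for that reason, with the GC box in capitals, on the minus strand:
Epha4, chr1:77515089-77515338 (-): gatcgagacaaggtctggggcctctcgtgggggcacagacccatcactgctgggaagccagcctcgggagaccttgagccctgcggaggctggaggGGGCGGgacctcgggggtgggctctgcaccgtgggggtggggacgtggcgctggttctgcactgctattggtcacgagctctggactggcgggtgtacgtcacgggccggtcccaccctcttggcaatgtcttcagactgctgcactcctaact

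Epha4 gave 48.3 and 49.96 in MHM + GF and 169 and 183 in rcCHIL3 at 3 days and 159.5 and 149 in MHM + GF and 148 and 142 in rcCHIL3 at 7 days. Only the early control arrays were low, by a wide margin. The change was 1.502 (SE 0.08, adjusted p = 6.6e-08) at 3 days and -0.08 (SE 0.08, adjusted p = 0.48) at 7 days. The difference of -1.58 (SE 0.12, adjusted p = 1.9e-06) was the largest downward one among all guidance genes tested, and the signal in MHM + GF rose from 3 to 7 days by 1.33 on the log2 scale. Ephb1, a receptor of transmembrane ephrins, had 95.2 and 85.4 in MHM + GF and 158 and 153 in rcCHIL3 at 3 days and 116 and 126 in MHM + GF and 126 and 139 in rcCHIL3 at 7 days. It rose by 0.67 (SE 0.09, adjusted p = 8.1e-05) at 3 days and showed 0.12 (SE 0.09, adjusted p = 0.32) at 7 days. Epha5, a receptor of lipid-anchored ephrins, gave 225 and 223 in MHM + GF and 299 and 281 in rcCHIL3 at 3 days and 137 and 130.3 in MHM + GF and 172 and 165 in rcCHIL3 at 7 days. It was higher in rcCHIL3 both times, by 0.34 (SE 0.07, adjusted p = 0.0023) and 0.30 (SE 0.07, adjusted p = 0.0067), and lower at 7 days in each medium. Its other probe sets past the filter gave 0.30 (not called) and 0.46 (called) at 3 days, and -0.13 and -0.07 (neither called) at 7 days, and 1 of them had a called difference between the days of -0.53.

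Ephb3, a receptor of ephrin-B ligands, ran against these. Its signals were 108 and 125 in MHM + GF and 39.1 and 48.8 in rcCHIL3 at 3 days and 130.1 and 115 in MHM + GF and 64.4 and 63.6 in rcCHIL3 at 7 days. Every rcCHIL3 array lay below every control array. The change was -1.10 (SE 0.11, adjusted p = 7.1e-06) at 3 days and -0.76 (SE 0.11, adjusted p = 0.00022) at 7 days, with a difference of 0.34 (SE 0.15, adjusted p = 0.097). Set beside the ephrins of the classes they bind, the receptors did not all move with their ligands. Epha4 and Efnb3 both rose at 3 days without a call at 7 days, and Ephb3 and Efnb2 both fell at each time. Other pairs went opposite ways at 3 days. Ephb3 fell while Efnb3 rose, Ephb1 rose while Efnb2 fell, and Epha4 rose while Efnb2 and Efna3 fell. No relation between receptors and ligands was tested. The call for Epha5 at 3 days ended on the signals as deposited (adjusted p = 0.131). The call for Epha5 at 7 days ended with the mean of the gene's probe sets (adjusted p = 0.734). The call for Ephb1 on the difference between the days ended on the signals as deposited (adjusted p = 0.14).

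Of 3 Slits and 4 Robos, only Slit1 and Robo1 were tested, and both were lower in rcCHIL3 at both times. Over all probe sets, 22.5% were lower at 3 days and 22.7% at 7 days. Robo1, the receptor, had its largest change at 3 days, and Slit1, the secreted ligand that repels migrating young neurons, at 7 days. The promoter of Robo1 is given because its fall was the largest of all guidance genes at 3 days. It holds no GC box:
Robo1, chr16:72662899-72663148 (+): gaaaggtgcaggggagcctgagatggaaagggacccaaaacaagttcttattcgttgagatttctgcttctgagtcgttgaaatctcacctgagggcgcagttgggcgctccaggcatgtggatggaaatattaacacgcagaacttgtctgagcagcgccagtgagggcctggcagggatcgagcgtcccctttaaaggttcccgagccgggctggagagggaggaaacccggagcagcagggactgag

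Robo1 gave 163 and 158 in MHM + GF and 43.5 and 44.6 in rcCHIL3 at 3 days and 65.8 and 55.2 in MHM + GF and 43.3 and 44.8 in rcCHIL3 at 7 days. The early control arrays were the highest, and the 4 rcCHIL3 arrays lay between 43.3 and 44.8. Robo1 met the limit for testing only in MHM + GF, so a difference between the media was built into its choice. The change was -1.49 (SE 0.10, adjusted p = 2.1e-07) at 3 days and -0.33 (SE 0.10, adjusted p = 0.018) at 7 days, a difference of 1.17 (SE 0.14, adjusted p = 5e-05). In MHM + GF the log2 change from 3 to 7 days was -1.17. Slit1 had 42.5 and 36.5 in MHM + GF and 24.7 and 27.7 in rcCHIL3 at 3 days and 62.98 and 54.6 in MHM + GF and 11.9 and 11.03 in rcCHIL3 at 7 days. Its lowest signals were those of rcCHIL3 at 7 days, and it met the limit for testing in MHM + GF at 7 days alone. The change was -0.36 (SE 0.11, adjusted p = 0.013) at 3 days and -1.32 (SE 0.11, adjusted p = 2.7e-06) at 7 days, with a difference between the days of -0.96 (SE 0.15, adjusted p = 0.0004). The call for Slit1 at 3 days ended with no filter and without MHM + GF 3 days replicate 1 or rcCHIL3 3 days replicate 1 (adjusted p from 0.0503 to 0.0911). The call for Robo1 at 7 days ended on the signals as deposited and without MHM + GF 7 days replicate 1 or rcCHIL3 7 days replicate 1 or 2 (adjusted p from 0.0524 to 0.184).

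Netrins and their receptors had 6 of 10 genes tested. At 3 days Neo1 and Unc5c rose and Ntn1 and Ntn4 fell, and at 7 days Dcc and Unc5b rose and none fell. These are 66.7% and 33.3% of the 6, beside 50.2% and 44% of all probe sets. Ntn1, the classical secreted netrin, and Ntn4, a netrin of basement membranes, were both lower early in rcCHIL3. Ntn4 gave 169 and 173 in MHM + GF and 74.4 and 72.2 in rcCHIL3 at 3 days and 125 and 122 in MHM + GF and 145 and 134 in rcCHIL3 at 7 days. The early rcCHIL3 arrays were the lowest. Its change was -1.03 (SE 0.08, adjusted p = 1.1e-06) at 3 days and 0.16 (SE 0.08, adjusted p = 0.14) at 7 days, and the difference of 1.19 (SE 0.11, adjusted p = 1.2e-05) was the largest upward one among the guidance genes tested. Ntn1 had 187 and 205 in MHM + GF and 99.5 and 96.2 in rcCHIL3 at 3 days and 92.8 and 93.6 in MHM + GF and 72.2 and 80.6 in rcCHIL3 at 7 days. The early control arrays stood above all others. Its change was -0.87 (SE 0.09, adjusted p = 8.7e-06) and -0.23 (SE 0.09, adjusted p = 0.051), with a difference of 0.64 (SE 0.13, adjusted p = 0.0018).

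Among the receptors, Unc5b, a netrin receptor linked to repulsion, gave 43.03 and 47.7 in MHM + GF and 53.5 and 61.7 in rcCHIL3 at 3 days and 29.96 and 39.6 in MHM + GF and 103 and 87.4 in rcCHIL3 at 7 days. The late rcCHIL3 arrays were the highest. Unc5b met the limit for testing only in rcCHIL3, so a difference between the media was built into its choice. Its change was 0.25 (SE 0.12, adjusted p = 0.1) at 3 days and 1.07 (SE 0.12, adjusted p = 3.5e-05) at 7 days, a difference of 0.83 (SE 0.17, adjusted p = 0.0023). Unc5c, its relative, had 34.97 and 32.4 in MHM + GF and 52.4 and 56.5 in rcCHIL3 at 3 days and 35.9 and 55.6 in MHM + GF and 70.1 and 57.2 in rcCHIL3 at 7 days. The control arrays at 7 days were spread widely. The change was 0.47 (SE 0.14, adjusted p = 0.015) and 0.36 (SE 0.14, adjusted p = 0.055). Neo1, which binds netrins and repulsive guidance molecules, gave 594 and 600.5 in MHM + GF and 761 and 756 in rcCHIL3 at 3 days and 669 and 689 in MHM + GF and 639.8 and 652 in rcCHIL3 at 7 days. The rcCHIL3 arrays were the highest at 3 days. The change was 0.33 (SE 0.06, adjusted p = 0.00053) and -0.07 (SE 0.06, adjusted p = 0.35), a difference of -0.40 (SE 0.08, adjusted p = 0.0022).

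Dcc, the receptor through which netrin attracts axons, had 237 and 237 in MHM + GF and 236 and 228 in rcCHIL3 at 3 days and 53.99 and 55.6 in MHM + GF and 76.6 and 76.9 in rcCHIL3 at 7 days. The media were close at 3 days, and both had dropped at 7 days, less so in rcCHIL3. Its change was -0.03 (SE 0.08, adjusted p = 0.79) at 3 days and 0.37 (SE 0.08, adjusted p = 0.0027) at 7 days, with a difference of 0.40 (SE 0.11, adjusted p = 0.013). The call for Unc5c at 3 days ended with no filter and without MHM + GF 3 days replicate 2 or rcCHIL3 3 days replicate 2 (adjusted p from 0.0557 to 0.0838). The call for Neo1 at 3 days ended on the signals as deposited and with the mean of the gene's probe sets (adjusted p from 0.0716 to 0.368). The call for Neo1 on the difference between the days ended on the signals as deposited and with the mean of the gene's probe sets (adjusted p from 0.308 to 0.701). The call for Dcc on the difference between the days ended without rcCHIL3 3 days replicate 2 (adjusted p = 0.0524).

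Over time the guidance genes moved within each medium too. In MHM + GF, 17 genes were higher and 10 lower at 7 than at 3 days, 69.2% of the 39 beside 57.1% of all probe sets (31.1% higher and 26% lower), and the median log2 change was 0.14 beside 0.04. In rcCHIL3, 5 were higher and 16 lower, 53.8% beside 35.8% (18% higher and 17.9% lower), with a median of -0.22 beside -0.00. On the signals as deposited the split in rcCHIL3 was 8 higher and 10 lower, of 53 genes tested. Without rcCHIL3 3 days replicate 1 it was 3 and 9, without rcCHIL3 3 days replicate 2 it was 4 and 8, and without rcCHIL3 7 days replicate 2 it was 3 and 11. Dcc fell most in both, with log2 changes of -1.78 (SE 0.08, adjusted p = 9.1e-09) in MHM + GF and -1.38 (SE 0.08, adjusted p = 3.1e-07) in rcCHIL3. In MHM + GF the next falls were those of Robo1, -1.17, Sema3a, -1.09, and Nrp2, -1.005. Epha4, 1.33, Plxna2, 1.23, Sema3b, 1.15, and Plxnc1, 1.14, rose most there. In rcCHIL3 the falls of Plxnb3, -0.88, Epha5, -0.71, and Nrp2, -0.66, followed that of Dcc, and the largest rises were those of Ntn4, 0.78, Unc5b, 0.57, and Nrp1, 0.45. The comparisons share arrays, so their changes are not independent.

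The effect of rcCHIL3 differed between the days for 25 of the 39 guidance genes, 64.1% beside 41.4% of all probe sets. It was more positive at 7 days for 8 genes (18.7% of all probe sets) and more negative for 17 (22.7%). This difference is computed from the same arrays as the change at 3 days.

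The 30 guidance genes under the filter gave low signals on these arrays. Of them, 9 stayed under 10 on every array, namely Epha1, Epha10, Epha2, Epha6, Epha8, Ntn3, Sema3g, Slit3 and Unc5d. Another 8 stayed under 20, and 29 of the 30 under 50. Efna5, a lipid-anchored ephrin, reached 55.8 on 1 array of rcCHIL3 at 3 days. Efna4, also an ephrin, gave 42.6 and 35.7 in MHM + GF and 13.2 and 15.7 in rcCHIL3 at 3 days, below the limit for testing. A low signal does not show that a gene was silent, since probes differ in how well they bind.

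For 11 of the 39 genes more than 1 probe set passed the filter, and in none of the 5 comparisons were the probe sets of a gene called in both directions. At 3 days all probe sets of 5 genes were called the same way, some were called for 4 genes, and none for 2. At 7 days these counts were 6, 4 and 1. Sema5a, Sema4d, Plxnb3 and Plxnc1 were called the same way by both probe sets at each time. Those of Neo1 disagreed in sign, with log2 changes from -0.29 to 0.36 at 3 days and from -0.14 to 0.44 at 7 days over its 4 probe sets. Of the 3 genes that matched by letters alone, Unc50, an inner nuclear membrane protein, was tested, and gave 0.44 (SE 0.10, adjusted p = 0.0032) at 3 days and 0.40 (SE 0.10, adjusted p = 0.0074) at 7 days.

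RefSeq promoters on GRCm38.p6 were at hand for 32 of the 39 genes, with 43 start sites. In the 250 bases before the start, 32 of the 43 (74.4%) held GGGCGG or CCGCCC, beside 32.7% of all 32851 promoters. TATAAA or its reverse TTTATA was in 1, that of Efnb2 (2.33% beside 12.4%), and CCAAT or ATTGG in 8 (18.6% beside 33.8%). ACGTG or CACGT was in 7 (16.3% beside 16.6%). The median GC content was 64.8% beside 52.4% over all promoters. The GC box was in 14 of 20 start sites of genes that rose at 3 days and in 10 of 13 of those that fell. GGGCGG can overlap itself, and a promoter can hold several of these motifs. These matches are letters in a window and show no binding.

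Other genes of guidance signalling were taken from a list of 78, of which 62 were tested. At 3 days 20 were higher and 16 lower in rcCHIL3, and at 7 days 13 were higher and 20 lower. These are 58.1% and 53.2% of the 62, near the 50.2% and 44% of all probe sets called. On the signals as deposited, where 69 were tested, 11 were lower at 7 days. Without MHM + GF 7 days replicate 2 the count higher at 7 days was 8, and without rcCHIL3 7 days replicate 2 it was 5. The 17 co-receptors and other guidance molecules tested gave 4 higher and 5 lower at 3 days and 6 and 4 at 7 days. For the 45 intracellular partners it was 16 and 11 at 3 days and 7 and 16 at 7 days. At 3 days the largest rises were those of Chn2, a chimaerin that turns off Rac, 1.68, adjusted p = 9e-09, Mical3, of the MICAL family of plexin partners, 0.81, adjusted p = 2.4e-05, and Flrt1, a cell surface protein, 0.81, adjusted p = 0.00017. The largest falls were those of Vav3, -1.52, adjusted p = 8.8e-07, Flrt3, a ligand of Unc5 receptors, -1.22, adjusted p = 8.9e-06, and Dock1, an exchange factor for Rac, -0.93, adjusted p = 1.9e-06.

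At 7 days Chl1, an adhesion molecule that joins neuropilin receptors, 0.97, adjusted p = 5.6e-06, Met, the receptor of hepatocyte growth factor, 0.82, adjusted p = 0.00018, and Cntn1, a contactin, 0.61, adjusted p = 0.00012, rose most. Dscaml1, an adhesion molecule, -1.26, adjusted p = 1.9e-06, Draxin, a secreted ligand of Dcc, -1.15, adjusted p = 1.5e-06, and Pak3, a kinase downstream of Rac and Cdc42, -1.10, adjusted p = 4e-07, fell most. The values beside these partner genes are log2 changes. The collapsin response mediators, which carry the Sema3a signal to the cytoskeleton, were singled out after their values were seen. Crmp1, -1.03, Dpysl3, -0.90, Dpysl4, -0.74, and Dpysl2, -0.22, were called lower at 7 days, as were 22.7% of all probe sets, and at 3 days Dpysl3 fell and Dpysl4 rose. The call for Dpysl2 ended on the signals as deposited, without MHM + GF 7 days replicate 2 and without rcCHIL3 7 days replicate 1.

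**Figure D4:**
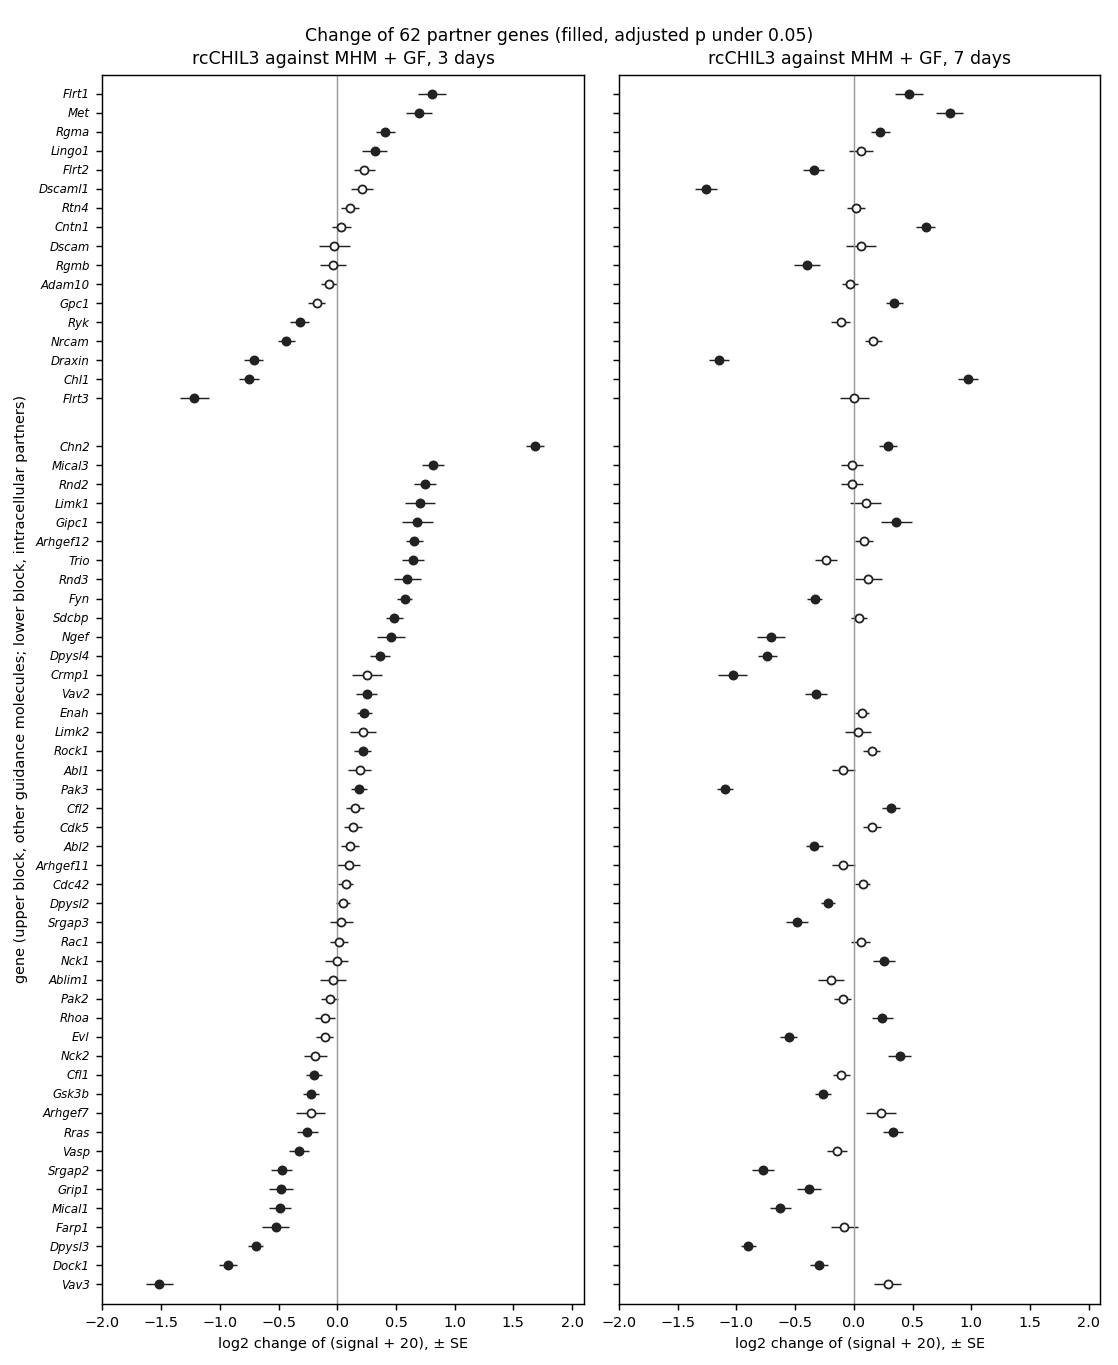
Log2 change of (signal + 20) in rcCHIL3 against MHM + GF for 62 partner genes of guidance signalling at 3 days (left) and 7 days (right), with other guidance molecules and co-receptors above and intracellular partners below. Points are estimates, bars ± SE, and filled points have an adjusted p under 0.05. Chn2 has the largest rise at 3 days and Dscaml1 the largest fall at 7 days.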

How the data were processed

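From each sample 100 ng of total RNA was labeled for 1 Affymetrix mouse array, 8 in all, with 2 independent experiments per group. Deposited signal intensities had been computed by the authors with MAS5 and a global scaling (GeneChip Operating Software in the methods, Affymetrix Expression Console 1.1 in the submitters' processing notes). Their averages were 267.3 to 316.6 an array, and not the average the methods name, so each array was rescaled to 100. No genome build was used for the signals. Of 45101 probe sets, 34958 have 1 gene symbol in GEO's platform annotation, 932 several and 9211 none, and genes were named from the first alone.

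Values were compared as log2(signal + 20) over the 15679 probe sets with a signal of at least 50 on at least 2 arrays, leaving out 64 controls. The model (R 4.3.3, limma 3.58.1) had 4 group means, 4 residual degrees of freedom and a variance trend in eBayes, and it tested 5 contrasts, two-sided, with Benjamini-Hochberg adjustment and a threshold of 0.05. The script was tested on simulated data. Other steps used numpy 2.4.6, pandas 2.3.3 and matplotlib 3.10.9 under Python 3.11.15. Array values are given for the 2 members of each family with the largest called change in each direction and day, and for its largest called difference between the days in each direction, and of the partner list the 3 genes with the largest called change in each direction and day are named. Members, lists and rules were chosen with earlier results of these data known. Deviations of arrays of the same number correlated weakly (r between -0.0106 and 0.1021), which cannot decide whether they were paired. The model has no block. Alternatives were other offsets, filters, scalings, variance models and probe set rules, the replicate block, the methods' t-test and leaving out each array in turn.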

Additional observations from a re-analysis of the deposited data

Results flagged for a closer look

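The effect of rcCHIL3 against MHM + GF differed between 7 and 3 days for 25 guidance genes, by the test of the difference itself in the limma model. They are 64.1% of the 39 tested, beside 41.4% of all probe sets. Each value is the log2 change of (signal + 20) at 7 days minus that at 3 days, with 2 arrays a group. Among the semaphorins the difference was -1.45 (adjusted p = 1.8e-05) for Sema3b, -0.78 (adjusted p = 0.002) for Sema4a, -0.48 (adjusted p = 0.0071) for Sema6a and -0.46 (adjusted p = 0.0013) for Sema6d. The upward value was 0.52 (adjusted p = 0.016) for Sema3a. For plexins and neuropilins the difference was -0.84 (adjusted p = 0.0015) for Plxna1, -1.31 (adjusted p = 9.2e-05) for Plxna2, -0.42 (adjusted p = 0.014) for Plxnb1, -0.73 (adjusted p = 0.00067) for Plxnb3, -1.05 (adjusted p = 4.8e-05) for Plxnc1 and -0.40 (adjusted p = 0.032) for Plxnd1. For the neuropilin the value was 0.72 (adjusted p = 0.00064) for Nrp1. In the ephrins the difference was -0.82 (adjusted p = 0.00051) for Efna1, -0.65 (adjusted p = 0.0023) for Efna2 and -0.95 (adjusted p = 0.00071) for Efnb3. The opposite sign was seen with 0.58 (adjusted p = 0.0062) for Efna3. The Eph receptors gave -1.58 (adjusted p = 1.9e-06) for Epha4 and -0.55 (adjusted p = 0.0048) for Ephb1. Slit1 and Robo1, the only members of their family tested, stood on opposite sides, with 1.17 (adjusted p = 5e-05) for Robo1 and -0.96 (adjusted p = 0.0004) for Slit1. With the netrins and their receptors the difference was -0.40 (adjusted p = 0.0022) for Neo1. Upward differences were 0.40 (adjusted p = 0.013) for Dcc, 0.64 (adjusted p = 0.0018) for Ntn1, 1.19 (adjusted p = 1.2e-05) for Ntn4 and 0.83 (adjusted p = 0.0023) for Unc5b. Plxna2 and Plxnc1 were called higher at 3 days and lower at 7 days, and Nrp1 lower and then higher. No other probe set of Plxna2 or Nrp1 past the filter was called at both times. On the signals as deposited, the differences for Efna2, Ephb1, Neo1, Plxnb1, Plxnd1, Sema3a, Sema6a and Sema6d were no longer called. The call for Dcc on the difference between the days ended without rcCHIL3 3 days replicate 2 (adjusted p = 0.0524). The call for Sema3a on the difference between the days ended with no filter, on the signals as deposited and without rcCHIL3 3 days replicate 2 or rcCHIL3 7 days replicate 2 (adjusted p from 0.0606 to 0.0753). The call for Plxnb1 on the difference between the days ended on the signals as deposited, with the mean of the gene's probe sets and without MHM + GF 3 days replicate 2, rcCHIL3 3 days replicate 2 or rcCHIL3 7 days replicate 2 (adjusted p from 0.0563 to 0.33). The call for Plxnd1 on the difference between the days ended with no filter, on the signals as deposited and without MHM + GF 3 days replicate 1, MHM + GF 7 days replicate 1 or 2, rcCHIL3 3 days replicate 1 or 2 or rcCHIL3 7 days replicate 2 (adjusted p from 0.0506 to 0.336).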

How the results depend on the processing

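With 2 arrays a group, 1 array can end a call, and the low probe sets carry the least signal over background. Of the 129 calls on guidance genes over the 5 comparisons, none changed direction under any alternative that could be fitted. In the settings other than the t-test and leaving out an array, 1282 of 1353 values stayed called and 71 did not, and 90 of the 129 calls held throughout. On leaving out each array in turn, 929 of 1032 values stayed called and 103 did not, and 93 of the calls held throughout. The methods' t-test on linear signals, unadjusted, called 82 of 104, and 21 of 104 after Benjamini-Hochberg. After that adjustment it called 9 guidance genes higher and 2 lower at 3 days, 0 and 0 at 7 days (10 and 10 unadjusted), 5 and 5 over time in MHM + GF, and 0 and 0 over time in rcCHIL3 (5 and 14 unadjusted). Of the partners it called 6 higher and 5 lower at 3 days (12 higher unadjusted) and 0 and 0 at 7 days (9 and 19 unadjusted). The cause was not tested. A filter of 100, which left 26 guidance genes, gave 6 lower at 3 days, 7 higher at 7 days, 6 lower over time in MHM + GF, 10 lower over time in rcCHIL3 and 5 upward differences between the days. The signals as deposited, with 53 guidance genes and 69 partners tested, gave 8 higher and 10 lower over time in rcCHIL3, and 11 partners lower at 7 days. There the same limit of 50 and offset of 20 were applied to arrays averaging 267.3 to 316.6. On that scale the median of all probe sets moved from -0.00 to 0.10 over time in rcCHIL3 and from -0.04 to 0.12 for the difference between the days, and the split of all called probe sets at 3 days was 3323 higher and 4485 lower against 4341 and 3531, and at 7 days 4115 and 2337 against 3343 and 3556. Over time in rcCHIL3 it was 3660 and 1655 against 2818 and 2799, and for the difference between the days 4033 and 1965 against 2938 and 3552.

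Leaving out each array in turn gave 16 to 19 guidance genes higher and 9 to 13 lower at 3 days, and 9 to 11 and 9 to 13 at 7 days. Over time it gave 13 to 17 and 9 to 11 in MHM + GF, and 3 to 5 and 8 to 16 in rcCHIL3. Upward differences between the days numbered 6 to 9 and downward ones 15 to 17. For the partners it gave 16 to 20 and 12 to 17 at 3 days, and 5 to 13 and 14 to 21 at 7 days. The lowest counts over time in rcCHIL3 came without rcCHIL3 3 days replicate 1 (3 higher, 9 lower) and replicate 2 (8 lower) and without rcCHIL3 7 days replicate 2 (3 higher), and for the partners at 7 days without MHM + GF 7 days replicate 2 (8 higher) and rcCHIL3 7 days replicate 2 (5 higher).

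With the replicate number as a block, guidance genes called higher and lower numbered 19 and 13 at 3 days, 11 and 14 at 7 days, 17 and 10 over time in MHM + GF, 5 and 15 over time in rcCHIL3, and 8 and 17 for the difference between the days. For the partners the block gave 20 and 16 at 3 days and 12 and 21 at 7 days. The labels give the arrays numbers, but do not say that arrays of the same number were paired. The correlations of deviations, from -0.0106 to 0.1021, cannot decide it.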
